A study of Homo sapiens with 3 samples.

Results

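The shared distal peaks inside protein-coding genes are 2367 CHD8 peaks, of 23393 in the deposited CHD8 list, mapped in human neural stem cells. They were chosen by peak calls: a CHD8 peak on chromosomes 1 to 22 or X was taken if it shared at least 1 bp with a TRRAP peak. It also had to touch no window of 1 kb on either side of a gene start and to have its summit in the body of a protein-coding gene. Gene starts were those of the gene records of GENCODE release 44, of every biotype, on GRCh38. The cells, grown with EGF and FGF, were wild-type neural stem cells made from the H9 line of human embryonic stem cells. Chromatin crosslinked with disuccinimidyl glutarate and formaldehyde was immunoprecipitated with antibodies against CHD8 or TRRAP, with 1 library for each. Chromatin precipitated with control IgG was not used here. Since no library was repeated, no p-value is given, every interval is a 95% interval for counting error only, and the read depth is unknown.

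CHD8 is a chromodomain helicase that moves nucleosomes, and loss of 1 copy of its gene is among the best established genetic causes of autism. TRRAP is a large scaffold protein without kinase activity that is shared by the TIP60 (NuA4) and SAGA histone acetyltransferase complexes and is recruited by activators such as MYC and E2F. Sites inside genes that lie away from the main promoter include alternative promoters, which are often CpG-rich, and intronic enhancers, which are mostly CpG-poor and carry words read by cell-type transcription factors. In neural stem cells such factors include SOX2 and other SOX proteins, proneural basic helix-loop-helix proteins and RFX proteins.

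The sequences at the summits of the strongest peaks are shown first, with examples of the words that the results count. Each is the plus strand of GRCh38 over the CHD8 summit and the 50 bases to either side, and no untranslated exon base is included. Capitals mark the consensus words described in the next paragraph. The following 5 have the highest CHD8 significance among single-copy peaks whose window could be shown, and all but the RAI1 peak lie at the start of their host gene's canonical transcript.
MORF4L1, chr15:78873501-78873601: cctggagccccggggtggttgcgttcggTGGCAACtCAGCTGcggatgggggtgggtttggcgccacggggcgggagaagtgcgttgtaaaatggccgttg
YOD1, chr1:207050851-207050951: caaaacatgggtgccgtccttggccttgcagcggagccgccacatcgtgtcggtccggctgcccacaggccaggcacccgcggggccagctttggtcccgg
EXOC7, chr17:76103844-76103944: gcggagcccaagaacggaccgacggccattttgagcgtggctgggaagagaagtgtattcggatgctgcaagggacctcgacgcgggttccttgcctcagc
ZNF638, chr2:71331916-71332016: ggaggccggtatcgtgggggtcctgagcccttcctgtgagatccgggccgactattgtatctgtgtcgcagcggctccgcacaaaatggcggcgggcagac
RAI1, chr17:17694685-17694785: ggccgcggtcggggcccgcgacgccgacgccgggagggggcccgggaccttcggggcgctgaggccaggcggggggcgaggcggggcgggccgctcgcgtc

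The words, searched on both strands, were ACAAAG or ACAATG (SOX), CAGCTG (proneural E-box), GTTGCCA (RFX), CACGTG (the E-box of MYC and MAX), GGGGCGGGG (SP and KLF proteins), AAGATGGCG (YY1), CAGGGGGC (CTCF) and GTGGGAA (RBPJ). None of these contains another. In the MORF4L1 window an RFX word and a proneural E-box begin 22 and 14 bp before the summit. The windows of YOD1, EXOC7, ZNF638 and RAI1 hold none of them. Among single-copy peaks whose window could be shown, the next 3 are the strongest with a SOX word, an SP/KLF word and a MYC E-box in that window.
KIAA0232, chr4:6783512-6783612: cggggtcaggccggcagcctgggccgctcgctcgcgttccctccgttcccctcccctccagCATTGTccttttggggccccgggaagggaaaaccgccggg
CCDC106, chr19:55643532-55643632: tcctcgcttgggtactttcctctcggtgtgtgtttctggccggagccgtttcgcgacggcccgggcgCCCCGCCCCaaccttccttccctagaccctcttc
ZSCAN5A, chr19:56252873-56252973: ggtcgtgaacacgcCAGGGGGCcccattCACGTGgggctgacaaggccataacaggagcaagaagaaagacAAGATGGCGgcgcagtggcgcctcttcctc

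A further set shows peaks with no annotated transcript start within 1 kb. They are 5 of the strongest that carry a SOX word, and the peak in the second intron of NES, shown with 100 bases to either side. All 6 were picked after their values had been seen, so they illustrate the word and do not represent the class. The ratio of observed to expected CpG was 0.723 at ILDR2 and 0.802 at XRCC5, and 0.929 at the RAI1 peak printed above, which also lies away from every start. PTPRS carries 2 SOX words, and XRCC5 carries SOX, YY1, SP/KLF and MYC E-box words together.
ILDR2, chr1:166947626-166947726: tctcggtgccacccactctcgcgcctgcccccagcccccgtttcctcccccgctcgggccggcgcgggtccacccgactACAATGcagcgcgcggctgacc
XRCC5, chr2:216114965-216115065: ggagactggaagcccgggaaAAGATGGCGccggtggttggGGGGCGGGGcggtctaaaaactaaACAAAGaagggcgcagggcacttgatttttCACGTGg
ZMIZ1, chr10:79129831-79129931: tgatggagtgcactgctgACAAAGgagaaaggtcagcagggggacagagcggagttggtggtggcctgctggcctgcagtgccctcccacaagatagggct
LMNA, chr1:156086409-156086509: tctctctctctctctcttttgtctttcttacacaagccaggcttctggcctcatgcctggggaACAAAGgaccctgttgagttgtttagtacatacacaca
PTPRS, chr19:5193409-5193509: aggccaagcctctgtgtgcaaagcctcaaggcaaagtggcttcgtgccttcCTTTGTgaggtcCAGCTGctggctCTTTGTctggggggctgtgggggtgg
NES, chr1:156673882-156674082: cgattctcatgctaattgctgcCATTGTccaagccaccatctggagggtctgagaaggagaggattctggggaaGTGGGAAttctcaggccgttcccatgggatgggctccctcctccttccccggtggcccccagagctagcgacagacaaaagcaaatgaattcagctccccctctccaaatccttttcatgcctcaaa

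The values that chose the peaks are given first, as description only. The median CHD8 fold (the peak's signal over the caller's background, as deposited by the authors) was 9.75, with a range of 5.33 to 67.2. For the strongest overlapping TRRAP peak, the median TRRAP fold was 8.65, with a range of 4.82 to 40.7. CHD8 peaks in gene bodies away from gene starts but without TRRAP were weaker, at a median CHD8 fold of 7.54, and CHD8 peaks shared with TRRAP at gene starts were stronger, at 12.4. The peaks had a median width of 396 bp, between 233 bp for the distal peaks without TRRAP and 693 bp for shared peaks at gene starts. In all, 48% of the CHD8 peaks on these chromosomes overlapped a TRRAP peak, and 42.1% of the distal ones in gene bodies did. The share with TRRAP followed CHD8 strength, from 76.3% in the strongest of 5 equal groups of the distal genic peaks through 36.2% in the middle group to 17.6% in the weakest.

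**Figure D1:**
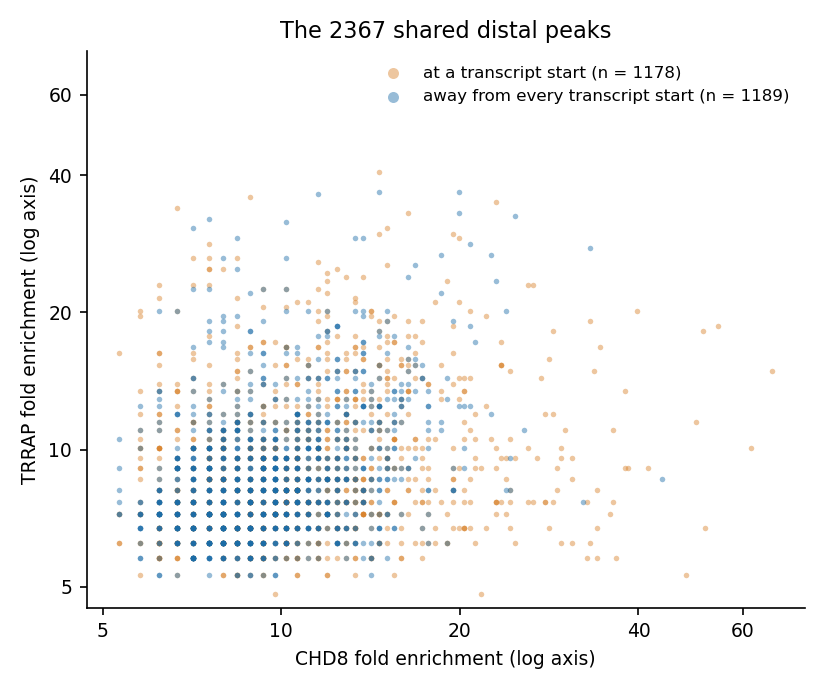
Each point is 1 of the 2367 shared distal peaks, placed by its CHD8 fold (horizontal, log axis) and the fold of its strongest overlapping TRRAP peak (vertical, log axis), coloured by whether the CHD8 peak lies within 1 kb of an annotated transcript start. The peaks with CHD8 folds above 40 are nearly all at a transcript start, while TRRAP folds have the same median, 8.65, in both colours.

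Peaks strong for one protein were mostly not the strongest for the other. Across the 2367 peaks Spearman's rho between the CHD8 and TRRAP folds was 0.26. The rank correlation was 0.32 among the 1189 peaks away from every transcript start and 0.20 among the 1178 at one, with every fold taken from the same 2 libraries. The CHD8 summit and the nearest summit of an overlapping TRRAP peak lay a median of 60 bp apart (95% interval 56 to 63), and 69.4% were within 100 bp. The distance was 53 bp away from every transcript start and 70 bp at one, against 38 bp for shared peaks between genes and 80 bp for shared peaks at gene starts. Of the CHD8 summits of shared peaks between genes, 45.8% lay in sequence present more than once in the assembly, against 3.04% of the 2367. Of the 2367 peaks, 183 overlapped more than 1 TRRAP peak and 511 had a CHD8 summit that fell outside the strongest overlapping TRRAP peak.

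About 50% of the peaks sat at a transcript start that the gene records do not show. A gene record carries only its outermost start, whereas 1178 peaks (49.8%, 47.8 to 51.8) touched the 1 kb around the start of some annotated transcript. For 635 of them this was the host gene's canonical transcript, for 364 another coding transcript of the host, for 155 only a noncoding transcript of the host and for 24 only a transcript of another gene. The remaining 1189 peaks (50.2%) had no annotated transcript start within 1 kb. On a 1 kb grid over the gene bodies open to the rule, 6.99% of positions lay at such a start. A grid position is a single base, whereas a peak counts over its whole width, so the grid share is the lower measure. Among distal CHD8 peaks without TRRAP the share was 43.5%, which is 6.29 percentage points lower (3.65 to 8.92).

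Introns of the canonical transcript held fewer of the peaks than of the sequence open to them. An intron held 63.6% of the summits (61.6 to 65.5), against 69.0% of CHD8 summits without TRRAP and 83.0% of grid positions. The first intron held 26.2%, against 29.8% and 19.9%. Untranslated exons held 8.20%, against 6.49% and 2.47%, and coding exons 3.84%, against 4.21% and 2.33%. The other 24.4% lay in the gene body but outside the canonical transcript, against 20.3% and 12.2%. When only peaks away from every transcript start were counted, 79.4% were in an intron and 27.3% in the first intron. The corresponding CHD8 peaks without TRRAP gave 78.7% and 28.0%, and for the first intron the difference was −0.63 percentage points (−3.86 to 2.65). Grid positions away from every transcript start gave 83.2% in an intron and 20.2% in the first intron. Summits within 5 kb of the host gene's start made up 18.8%, against 5.31% of grid positions, and those more than 100 kb away made up 24.2%, against 42.0%.

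**Figure D2:**
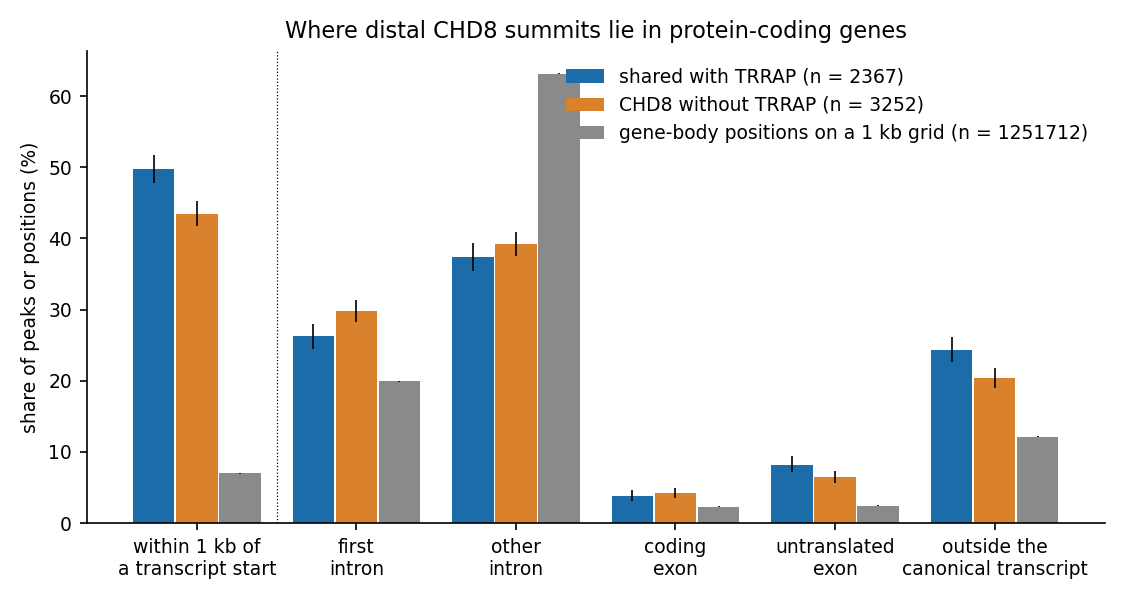
Left of the dotted line, bars give the share of peaks that touch 1 kb around a transcript start. The grid bar there gives single positions, on a 1 kb grid over the eligible gene bodies, within 1 kb of one. Right of the line, bars give the share of summits, or of grid positions, in each part of the host's canonical transcript. Error bars are 95% Wilson intervals for counting error. The share at a transcript start is 49.8% for shared peaks, 43.5% for CHD8 peaks without TRRAP and 6.99% of the grid. The peak classes were not matched for CHD8 strength.

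Of the 10 strongest CHD8 peaks with single-copy summits, all but 1 lay at the start of their host gene's canonical transcript, inside the longer gene record. The strongest was in the first intron of MORF4L1 (chr15:78872393-78873958), the gene of a chromodomain subunit of the TIP60 complex, 172 bp from a transcript start. Its folds were 67.2 for CHD8 and 14.9 for TRRAP. ZBTB40, a zinc finger gene, followed with folds of 61.9 for CHD8 and 10.1 for TRRAP in an untranslated exon. At NACA, which encodes a nascent polypeptide-binding chaperone subunit, the CHD8 and TRRAP folds were 54.4 and 18.7. YOD1, a deubiquitinase gene, had folds of 51.7 for CHD8 and 6.73 for TRRAP in a coding exon. The CTNNB1 peak, at the canonical start of the beta-catenin gene (chr3:41198756-41200150), had folds of 51.3 and 18.2. The splicing factor gene SRSF5 had folds of 48.2 and 5.30, with the summits 560 bp apart. SZRD1 had folds of 41.6 and 9.12, HNRNPUL1, an RNA-binding protein gene, 39.8 and 20.1, and FUZ, a planar polarity and ciliogenesis gene, 38.5 and 9.12. The remaining peak of the top 10, in an intron of a readthrough gene on chromosome 22, was the only one with no transcript start within 1 kb, and its folds were 43.8 and 8.65.

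The peaks strongest for TRRAP were another set of genes, none of them among the 10 strongest for CHD8. GOLGA7 on chromosome 8, which encodes a subunit of a palmitoyltransferase, had a TRRAP fold of 40.7 and a CHD8 fold of 14.6. RGS20, a regulator of G protein signalling, had folds of 36.8 and 14.6, and XRCC5, which encodes the Ku80 DNA repair protein, 36.8 and 19.9. RAI1, the dosage-sensitive gene of Smith-Magenis syndrome, had folds of 36.4 for TRRAP and 11.5 for CHD8 at this site (chr17:17724298-17725396). The CHD8 summit there lay outside that TRRAP peak, and another overlapping TRRAP peak had its summit 2 bp away. At a separate site in the first intron of RAI1 (chr17:17694299-17695078) the folds were 7.69 for TRRAP and 32.3 for CHD8. CCDC106 had folds of 35.9 and 8.87, and CDK2AP1, a CDK2-binding protein gene, 34.9 and 23.0. WASF1, an actin regulator gene, had a TRRAP fold of 34.0 beside a CHD8 fold of 6.66, with the nearest TRRAP summit 853 bp away. BCL9, a beta-catenin coactivator gene, had 33.0 and 16.4, ILDR2 33.0 and 19.9, and CDKN1A, the gene of the p21 inhibitor of cyclin-dependent kinases, 32.1 and 7.54. RGS20, XRCC5, ILDR2, CDKN1A and the RAI1 sites had no annotated transcript start within 1 kb.

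The 2 kinds of shared distal peak differed in CpG content, a property that the choice did not use. The CpG ratio (observed over expected CpG within 250 bp of the summit) had a median of 0.778 (0.760 to 0.792) at a transcript start and 0.295 (0.285 to 0.306) away from every start. Shared peaks at gene starts had 0.851. CpG-rich sequence, taken as a ratio of at least 0.6 with a GC content of at least 50%, surrounded 70.3% of the peaks at a transcript start and 91.3% of shared peaks at gene starts. Away from every start it surrounded 13.1% (11.3 to 15.2), against 9.96% of the CHD8 peaks without TRRAP there. Over the whole set the median ratio of 0.454 falls between the 2 kinds and describes neither. Peaks at a transcript start were also wider, with a median of 498 bp against 336 bp, and had a higher median CHD8 fold, 10.6 against 9.31.

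**Figure D3:**
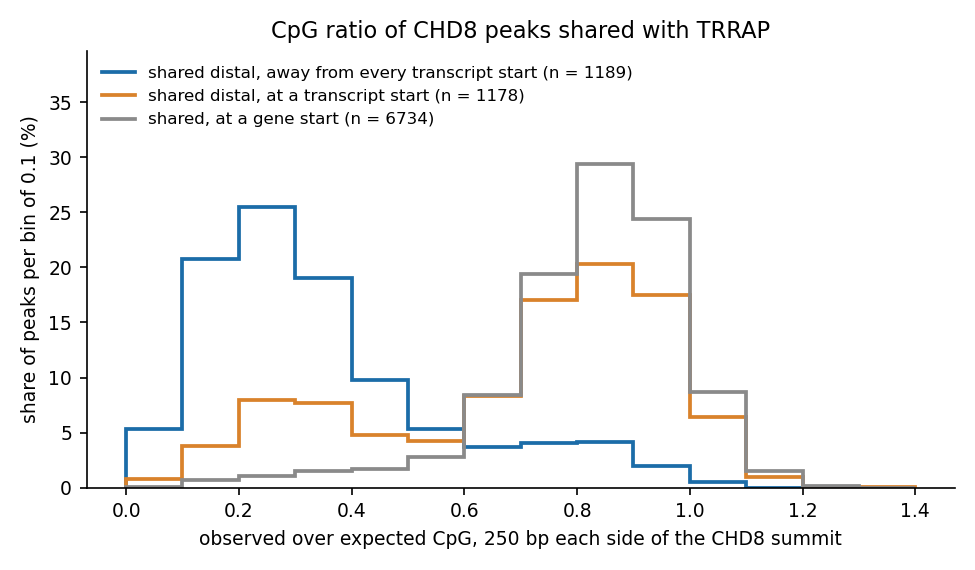
Lines give the share of peaks in each bin of 0.1 of the CpG ratio, for shared distal peaks at a transcript start (1178), those away from every start (1189) and CHD8 peaks shared with TRRAP at gene starts (6734). Peaks away from every start are centred at a low ratio (median 0.295), and those at a transcript start have their mode in the same bin as the gene starts, 0.8 to 0.9, holding 20.3% against 29.4% of peaks, with a smaller shoulder at low ratios.

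Of the 40 neural stem cell and radial glia genes, 7 hosted a peak away from every start, beside 4.31% of all protein-coding genes, and NES had the strongest. NES encodes nestin, the intermediate filament protein used as a marker of neural progenitors, and its second intron is known to hold an enhancer active in those cells. The peak there (chr1:156673375-156674622) was in intron 2 of 3, 3425 bp from the gene start, with folds of 23.0 for CHD8 and 23.5 for TRRAP. Its CpG ratio was 0.185, and a SOX word began 78 bp and an RBPJ word 26 bp before the summit in the sequence printed above, whose strand is opposite to the gene. The following genes are not on that list, and VANGL2, CACNA1C and GDF11 were added after values were seen. VANGL2, a planar polarity gene, had folds of 20.8 for CHD8 and 28.2 for TRRAP in its first intron (chr1:160410181-160411543). CACNA1C, a voltage-gated calcium channel gene, had 22.6 and 26.8 in intron 3, 285171 bp from its start. GDF11, a TGF-beta family ligand gene, had 22.6 and 12.0 in its first intron with a CpG ratio of 0.148. The Hedgehog pathway genes BOC, a co-receptor, and GLI2, a transcription factor, had CHD8 folds of 19.0 and 15.5 and TRRAP folds of 14.4 and 11.5, both in intron 2. EGFR, the receptor of the EGF in the medium, had 13.3 and 10.1 in its first intron, and FGFR1, a receptor of FGF, 14.6 and 9.12 in intron 2. The other peaks that led this class were also added after values were seen. They were in ZSCAN5A (25.7 and 11.0), SPAG6 (24.3 and 9.60), MACROD1 (24.3 and 8.17), SLC12A9 (23.9 and 8.17), POLN (21.2 and 17.2) and PPP1R10 (20.8 and 12.5), given as CHD8 and TRRAP folds. Of these, SPAG6 and SLC12A9 had CpG ratios above 0.6, at 1.04 and 0.787.

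SOX words were frequent at the peaks away from transcript starts. A SOX word stood within 100 bp of the summit in 49.7% of them, against 22.3% of windows of the same length 1 kb to either side, a difference of 27.4 percentage points (24.1 to 30.6). Among distal CHD8 peaks without TRRAP away from every start the share was 36.8%, which is 12.9 points lower (9.32 to 16.5). Shared peaks between genes had 38.9%, shared peaks at a transcript start 23.5%, and all CHD8 peaks 21.4%. The peaks between genes are unlike the others in 1 respect. Of their summits, 45.8% lay in sequence present more than once in the assembly, against 4.54% of the shared distal peaks away from every start. The SOX share of single-copy peaks between genes was not tested. TRRAP-positive peaks are the stronger CHD8 peaks, so the comparison was repeated within 3 equal groups of CHD8 strength. The shares with and without TRRAP were 52.9% and 37.6% in the strongest group and 47.9% and 37.9% in the middle group. In the weakest group they were 41.8% and 35.6%, and there the interval of the difference included 0 (6.21 points, −1.47 to 14.1). Within CpG ratios under 0.3 the shares were 58.6% and 42.7%, between 0.3 and 0.6 they were 47.4% and 33.8%, and from 0.6 up they were 23.4% and 14.1%. In bins of 50 bp the word was found in 19.4% of these peaks just after the summit and in 7.15% of them 250 to 300 bp before it.

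**Figure D4:**
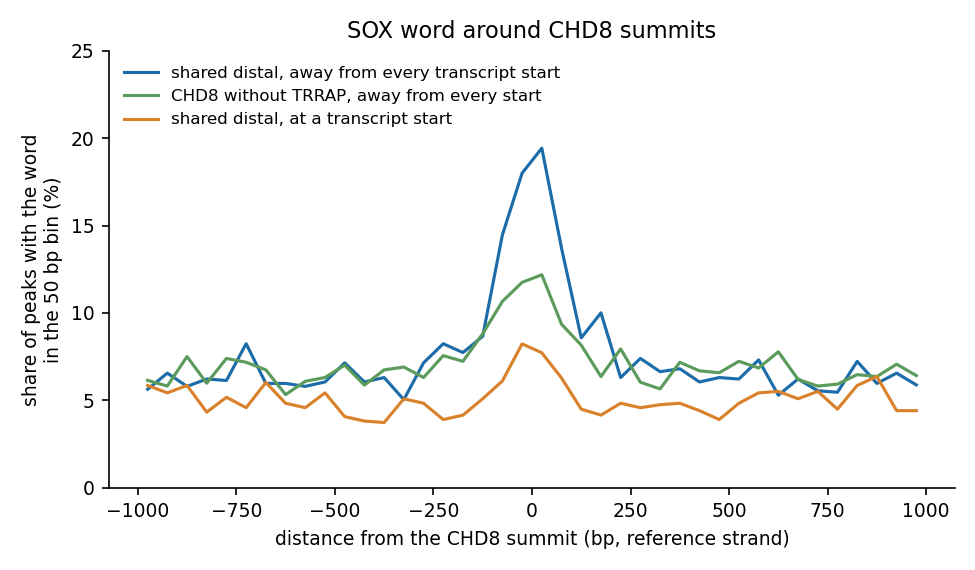
Lines give the share of peaks with a SOX word (ACAAAG or ACAATG, either strand) in each 50 bp bin up to 1 kb on either side of the CHD8 summit. The line of shared peaks away from every start reaches 19.4% at the summit, above the peaks without TRRAP and above the shared peaks at a transcript start.

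Other words separated the classes differently. The proneural E-box was as frequent in peaks with TRRAP as without, at 24.6% and 24.3% away from every start, against 10.5% in the windows 1 kb away. The RFX word was in 8.58% of the shared peaks away from starts, 4.68% of those without TRRAP (difference 3.90 points, 2.09 to 5.84) and 2.44% of the windows 1 kb away. For the E-box of MYC and MAX the shares were 5.97%, 3.37% (difference 2.60 points, 1.07 to 4.26) and 3.20%. The TEAD word (GGAATG) was in 16.9% with TRRAP and 18.4% without, and the AP-1 word (TGANTCA) in 8.75% and 7.83%, both above the 10.5% and 5.42% of windows 1 kb away. The homeobox word (TAATTA) was rarer at these summits than 1 kb away, at 1.51% against 4.58%. Some words of general promoters were more frequent in peaks at a transcript start than in those away from every start. The SP/KLF word was in 16.0% of them and in 5.38% of the peaks away from starts, the YY1 word in 2.80% and 0.505%, and the ETS word (CCGGAAGT) in 2.55% and 0.589%. Shared peaks at gene starts held these 3 words still more often, in 18.4%, 4.90% and 5.26%. Peaks at a transcript start also exceeded the windows 1 kb away from them for the SOX word (23.5% against 18.8%), the proneural E-box (15.9% against 11.0%) and the RFX word (4.75% against 1.78%). Away from starts the SP/KLF word exceeded its windows as well (5.38% against 1.39%). A word match is a match of letters and was not tested as a binding site.

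**Figure D5:**
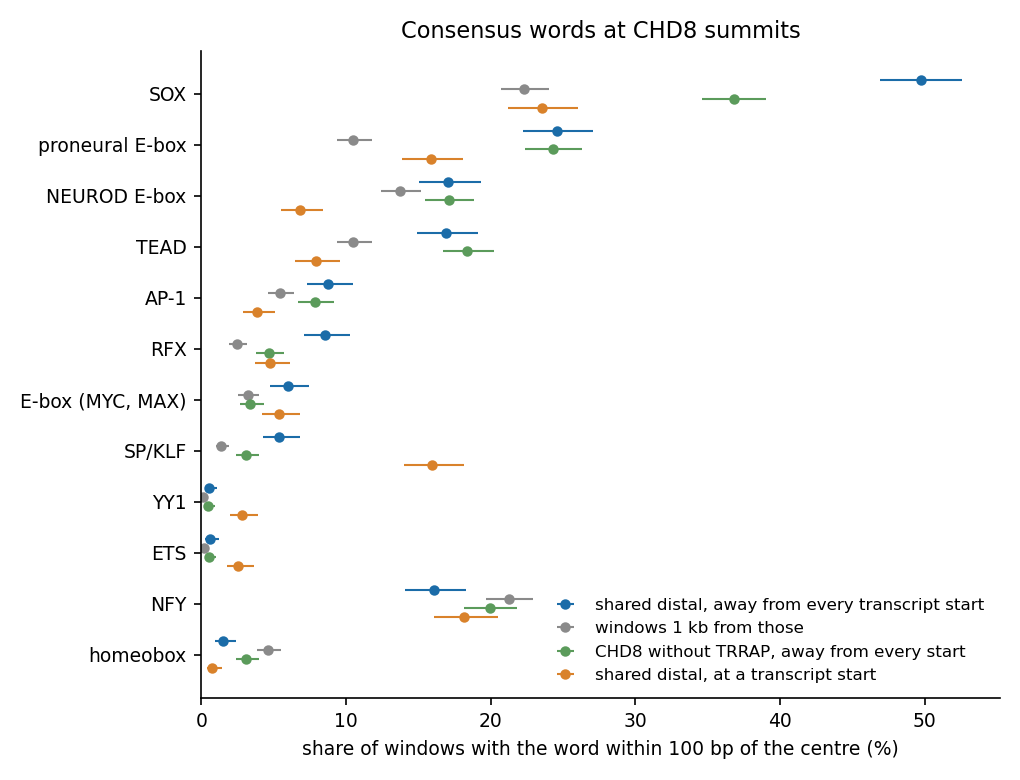
Points give the share of windows of 100 bp to either side of a summit that hold each word, with 95% Wilson intervals, for shared distal peaks away from and at a transcript start, for windows 1 kb from the former and for CHD8 peaks without TRRAP away from every start. The SOX word reaches 49.7% in the shared peaks away from starts, the proneural E-box does not separate peaks with and without TRRAP, and the SP/KLF word is highest at transcript starts.

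The peaks were spread over 1685 host genes, or 8.44% of 19970 protein-coding genes, and 860 genes (4.31%) hosted a peak away from every transcript start. Most hosts, 1269, held 1 peak, while 416 held more than 1 and together 1098 peaks, and 27 held 5 or more. Longer genes were hosts more often, from 1.39% of genes under 10 kb to 27.7% of those over 300 kb. Neighbouring peaks in 1 gene lay a median of 11783 bp apart, and 47.5% of neighbours were within 10 kb. GSE1, which encodes a coiled-coil protein of histone deacetylase complexes, held 12, of which 4 were at a transcript start, with CHD8 folds of 7.54 to 20.4 and TRRAP folds of 6.26 to 14.9. It held 20 further distal CHD8 peaks without TRRAP. ZFHX3, a homeodomain zinc finger gene, held 9, with CHD8 folds of 9.31 to 14.6 and TRRAP folds of 6.26 to 12.5, beside 9 without TRRAP. MAML3, a Notch coactivator gene, held 8, with CHD8 folds of 6.66 to 13.7 and TRRAP folds of 6.73 to 23.9, beside 2 without TRRAP. CASZ1 and KAZN held 6 each, among several genes tied at that number.

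Peaks at the gene start were left out by the rule, so whether host genes had both proteins at their own start was open. Both were there in 39.2% of the 1685 hosts (36.9 to 41.6), against 31.9% of all protein-coding genes. Among genes that hosted only distal CHD8 peaks without TRRAP it was 33.8%, a difference of 5.44 percentage points (2.11 to 8.75), and among genes with no distal CHD8 peak 30.9%. With only CHD8 peaks above the median rank counted everywhere, the shares were 31.2% of hosts, 27.1% of all genes and 26.7% of genes with only peaks without TRRAP. The difference from the last was then 4.52 points, with an interval that included 0 (−0.50 to 9.29). The hosts were longer, with a median of 85885 bp against 69021 bp and 22608 bp, and the part of gene length in the difference was not tested. The 2 kinds of peak again differed. Hosts of peaks away from every transcript start had both proteins at the gene start in 46.7% of cases. Hosts with a peak at their canonical transcript start had both at the outermost start in 26.1% and neither there in 56.8%.

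Gene lists of pathways known in neural stem cells are described by the number of their genes that hosted a peak, beside 8.44% of all protein-coding genes, which had a median length of 27476.5 bp. Longer genes were hosts more often. The share was 5.32% of genes of 10000 to 30000 bp, 9.58% of those of 30000 to 100000 bp and 19.1% of those of 100000 to 300000 bp. Median lengths were 25309.5 bp for the neural stem cell list, 32079.5 bp for Notch, 54274 bp for WNT and 76457 bp for Hedgehog. They were 56518 bp for TGF-beta and BMP, 76828 bp for FGF, EGF and MAPK, and 91797 bp for Hippo. The part of gene length in the list shares was not tested. Of 40 neural stem cell and radial glia genes 11 were hosts, among them NES, MSI1 and MSI2, which encode RNA-binding proteins of stem cells, and PROM1. The strongest MSI1 peak had folds of 22.1 for CHD8 and 12.5 for TRRAP, at a noncoding transcript's start in intron 6. Of 24 Notch pathway genes 7 were hosts. RBPJ, the DNA-binding factor of the pathway, had folds of 15.1 and 8.17, and LFNG, which modifies the receptor, 15.5 and 19.6. Of 35 WNT genes 8 were hosts, CTNNB1 and BCL9 leading. Of 17 Hedgehog genes 5 were hosts, namely PTCH1, GLI2, GLI3, SUFU and BOC, and each of them had a peak away from every transcript start. Of 31 TGF-beta and BMP genes 6 were hosts, with SKI, a SMAD corepressor gene, at CHD8 folds of 23.0 and 19.0 and TRRAP folds of 10.1 and 6.26 at 2 sites of its first intron. Of 34 FGF, EGF and MAPK genes 9 were hosts, EGFR and FGFR1 leading. Hippo pathway genes were hosts in 10 of 24 cases, including the coactivator genes YAP1 and WWTR1 and the DNA-binding partners TEAD1 and TEAD3. The VGLL4 peak had folds of 19.9 and 12.9, and the peak of FAT1, an atypical cadherin gene, 17.3 and 8.17.

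The list with the highest share of hosts was axon guidance and cell adhesion, with 18 of 40 genes, and it was also the list of longest genes, with a median of 313128 bp. Its strongest peaks were in intron 5 of CDH4, a cadherin gene (folds of 14.2 and 11.0), and in intron 3 of PLXNA2, a semaphorin receptor gene (13.7 and 16.3). Of 57 autism-associated genes, with a median length of 156824 bp, 16 were hosts, SKI and KMT2E leading. The KMT2E peak had folds of 20.8 and 7.69 at the start of another gene's transcript. Of 52 chromatin regulator genes, with a median length of 116227 bp, 14 were hosts. CHD9, a relative of CHD8, led with CHD8 folds of 32.7 and 24.3 and TRRAP folds of 5.78 and 10.6 at 2 alternative starts of its coding transcripts. Of 47 MYC, E2F and cell cycle genes, with a median length of 20868 bp, 12 were hosts, and 4 of them had a peak away from every start. They included MXD1, MXI1, MNT and MGA, whose proteins bind MAX or form part of the MAX network, and E2F3. MNT had folds of 15.5 and 14.4, and CDK4 15.1 and 12.0. Of 30 neuronal genes, with a median length of 117838 bp, 5 were hosts. SNAP25, a synaptic vesicle fusion gene, had the strongest peak, with folds of 38.0 and 13.4 at its canonical start. The CHD8 summit there lay outside that TRRAP peak, and another overlapping TRRAP peak had its summit 9 bp away. GRIN2B, a glutamate receptor gene, had 9.75 and 10.1 in intron 3. Glial genes gave 1 of 16, S100B, with 7.54 and 8.65. Pluripotency genes gave 4 of 15, including DNMT3B (12.8 and 10.6) and LIN28A (9.75 and 6.73), and mesenchymal and neural crest genes 2 of 22, ZEB2 (14.2 and 5.30) and TWIST2 (9.75 and 7.69). Median lengths were 17819.5 bp for the glial list, 17480 bp for the pluripotency list and 40204 bp for the mesenchymal and neural crest list. Expression of the listed genes was not measured here, and the lists were not tested against each other.

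Few of the peaks lay in repeated sequence. The summit of 72 peaks (3.04%, 2.42 to 3.81) was in sequence present more than once in the assembly, against 45.8% of CHD8 peaks shared with TRRAP between genes. TTC34 held 7 of the 72, which were all its peaks, and DUX4 5, also all its peaks. The values on either side of the rule's edges were as follows. The 130 peaks whose nearest gene start was 1001 to 1250 bp from the peak edge had a median CHD8 fold of 9.31 and a CpG ratio of 0.758. The 148 shared peaks left out at 751 to 1000 bp had 9.75 and 0.754. The 50 peaks that overlapped TRRAP by 1 to 50 bp had a median CHD8 fold of 7.10 and a CpG ratio of 0.590, and the 23 left out with a gap of 1 to 50 bp had 6.66 and 0.792.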

How the data were processed

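ChIP-seq libraries of CHD8 and TRRAP from human neural stem cells were used as deposited peak lists, 1 library and 1 list each. The submitters' processing notes name HISAT2, MACS2 2.1.1.20160309 and GRCh38, without roles. The control, filters and read totals are not given in the sources used here. Each list gives for every peak a fold (a linear ratio of signal over background, from the authors), a −log10 p and a −log10 q value and a score, all as deposited by the authors. Every deposited score of the authors equalled 10 times its −log10 q, rounded down, and only fold and −log10 q were used, to describe, rank and filter peaks within a list.

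Peaks were joined by overlap of at least 1 bp and placed on GENCODE 44 with Python 3.11.15, numpy 2.4.6, pandas 2.3.3, scipy 1.17.1, pysam 0.24.0 and samtools 1.23.1. A peak was at a transcript start if it touched 1 kb on either side of any annotated one. Host ties went to the gene with the nearest start. Summits were multi-copy where the median genome count of the 32-base words within 50 bp exceeded 1. Words were exact matches within 100 bp of the CHD8 summit. Shares have Wilson intervals, differences Newcombe intervals and medians binomial order-statistic intervals. The overlap and word searches were tested on simulated data.

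The peaks, the 15 gene lists (484 entries) and the 23 words were chosen with earlier results of these data known. Among single-copy peaks, the genes named were the 10 highest by CHD8 and by TRRAP −log10 q, the 5 hosts with most peaks, the 2 strongest of each list and the 2 strongest of each position class. Added after values were seen were 10 more peaks away from transcript starts and the SOX comparison within strength and CpG classes. List members and printed sequences were named beyond that to show what a list holds, and 1 sequence so picked is not reported here. Alternatives changed the overlap, the start window, the start annotation, the peaks kept and the summit used.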

Additional observations from a re-analysis of the deposited data

How the results depend on the processing

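No paired analysis was possible because each antibody had 1 library. Of the recomputed main values, 58 stayed within the interval of the reported value (counts: within 1.5 times) and 33 did not. Requiring an overlap of 50% of the shorter peak moved the TRRAP share of distal genic CHD8 peaks to 40.3%. With summits within 200 bp that share was 37.1%, the share at a transcript start 46.9%, the median summit distance 52 bp and the median CpG ratio 0.421. A start window of 500 bp gave a TRRAP share of 40.4%, a first intron share of 28.7%, a share at a transcript start of 56.1%, both proteins at the start of 35.8% of hosts and a CpG ratio of 0.542. A window of 2500 bp gave 22.4% in the first intron, 45.5% at a transcript start, 43.2% of hosts with both and a CpG ratio of 0.394. Using the starts of every transcript left 1189 peaks, a TRRAP share of 39.3%, 79.4% in introns, 0% at a transcript start by construction, a median CHD8 fold of 9.31, a summit distance of 53 bp, 4.54% multi-copy, 46.7% of hosts with both and a CpG ratio of 0.295. The stronger CHD8 peaks alone, ranked above the median, left 1356 peaks, a TRRAP share of 69.1%, 59.9% in introns, 55.3% at a transcript start, a median fold of 12.0, 1.99% multi-copy, 31.2% of hosts with both and a CpG ratio of 0.521. With single-copy summits the multi-copy share was 0% by construction, and a CpG window of 500 bp on each side gave 0.420. Where no construction is named, the cause was not tested. A TRRAP q of at most 0.0001 and the TRRAP summit in place of the CHD8 summit moved none of the 10 results beyond their intervals. None of the word differences from windows 1 kb away whose interval excluded 0 reversed under the other windows, single-copy peaks or starts of every transcript, but 9, 13, 0 and 13 of the 23 moved beyond their intervals with windows of 50 bp, of 250 bp, single-copy peaks and starts of every transcript. Counting starts of every transcript lowered the host share of the MYC, E2F and cell cycle list to 8.51%, of the chromatin list to 13.5%, of the autism list to 15.8% and of the pluripotency list to 6.67%, while the share of all protein-coding genes fell from 8.44% to 4.31%. The lists named are those whose share left its interval. Most other lists fell but stayed within theirs, as Hippo did from 41.7% to 29.2%. The Hedgehog, glial and mesenchymal lists did not change. The read depth behind the lists is unknown, so a missing TRRAP peak does not show that TRRAP is absent.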

Other observations

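More than 1 SOX word within 100 bp of the summit was found in 16.9% (14.9 to 19.1) of the shared distal peaks away from every transcript start and in 8.27% (7.10 to 9.62) of the CHD8 peaks without TRRAP there. A SOX word together with a proneural E-box was found in 12.4% (10.7 to 14.4) and 8.60% (7.40 to 9.97). Counted singly, the SOX word was in 49.7% and 36.8% and the proneural E-box in 24.6% and 24.3%. Whether the pair was more frequent than these single shares give was not tested. The form ACAAAG was in 36.6% with TRRAP and 24.2% without, and the form ACAATG in 20.6% and 16.7%. SOX shares were close in the first intron (49.5%) and in other introns (51.7%) of the shared peaks. In 3 equal groups by TRRAP significance, from the strongest, they were 53.9%, 52.0% and 43.2%. These counts were chosen after the SOX values had been seen.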
